A study of Mus musculus with 8 samples.

Results

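The S100 genes encode small proteins, most of them calcium-binding, that act inside cells on cytoskeletal and membrane proteins. Several S100 proteins are also secreted and act as danger signals. The 10 S100 genes described here were chosen by name, with earlier results of these data known. They are S100a8 and S100a9, abundant in neutrophils; S100a14 and S100a7a, expressed in stratified squamous epithelium; S100a4 and S100a6, common in fibroblasts; and S100a1, S100a10, S100a11 and S100a16. They were 10 of the 52325 genes in the count table and 10 of the 18174 genes tested. RNA was sequenced from endometrium cut by laser capture out of frozen uterus sections from 4 WT and 4 Thra1PV/+ mice, each one library, with all mice matched at the metestrus phase of the estrous cycle. The Thra1PV/+ mice carry a dominant negative mutation, PV, in one allele of Thra, which encodes thyroid hormone receptor α1, as a germline change that is not limited to the uterus, and WT mice carry no such allele. Neither the ages and strain of these 8 mice nor the number of sections pooled per library is given in the sources used here.

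Most S100 proteins bind calcium through a pair of EF-hand motifs, usually as dimers, and change shape so that they can grip a partner protein. S100A8 and S100A9 pair as calprotectin, which neutrophils hold in their cytosol in large amounts and which squamous epithelium also makes under stress. S100A10 and S100A11 bind annexins, S100A4 binds non-muscle myosin, S100A6 binds calcyclin-binding protein, and the secreted members signal through the receptors encoded by Ager and Tlr4. In the mouse most S100 genes lie in one cluster on chromosome 3, beside the epidermal differentiation genes.

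The estimated counts per library ranged from 48791602 to 59818887, and levels are given as CPM, the counts of a gene scaled to a common library total with TMM factors. Fold changes are Thra1PV/+ over WT. A gene was called when its fold change was 2 or more and its adjusted p 0.1 or less (edgeR quasi-likelihood test, Benjamini-Hochberg adjustment over all 18174 tested genes), and 180 genes, 0.99%, were called, of which 168, 0.924%, were higher in Thra1PV/+. Thra itself stood at 80.1 ± 34.2 CPM (SD, n = 4) in Thra1PV/+ and 78.0 ± 33.7 CPM (SD, n = 4) in WT endometrium, and gene-level counts do not separate the PV transcript from the normal one. The cell makeup of the captures differed between libraries. Summed CPM of 9 stromal markers ranged from 499 to 6450 in Thra1PV/+ and from 1878 to 6220 in WT libraries, and those of 5 smooth muscle markers reached 11926 in WT library 1, against 504 to 1038 in the other WT and 124 to 624 in the Thra1PV/+ libraries. Fewer cells of a type and less RNA per cell cannot be told apart in such samples.

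The sequences around the S100 start sites are shown for S100a16, which was called, and for S100a8 and S100a9, whose levels varied together from library to library. Windows from 250 bases before to 50 after the start were taken from RefSeq (build GRCm38.p6, the assembly of mm10), which gave 9 windows for 8 of the 10 genes. The sequences of S100a10 and S100a14 were not used here. Capitals mark matches on either strand to any of 5 motifs. The C/EBP motif was searched as TTGCNNAA and the AP-1 motif as TGANTCA. The half-site bound by thyroid hormone receptors was searched as AGGTCA. The letters of the TATA box were TATAAA, and those of the GC box were GGGCGG. Each is printed 5′ to 3′ in the direction of transcription.
S100a8, chr3:90668821-90669120, plus strand: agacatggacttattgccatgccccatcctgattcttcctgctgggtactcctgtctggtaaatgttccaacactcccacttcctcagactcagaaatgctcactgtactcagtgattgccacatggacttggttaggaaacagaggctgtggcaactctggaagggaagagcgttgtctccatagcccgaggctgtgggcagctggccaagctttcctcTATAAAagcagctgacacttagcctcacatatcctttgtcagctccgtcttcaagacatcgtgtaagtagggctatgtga
S100a9, chr3:90695672-90695971, minus strand: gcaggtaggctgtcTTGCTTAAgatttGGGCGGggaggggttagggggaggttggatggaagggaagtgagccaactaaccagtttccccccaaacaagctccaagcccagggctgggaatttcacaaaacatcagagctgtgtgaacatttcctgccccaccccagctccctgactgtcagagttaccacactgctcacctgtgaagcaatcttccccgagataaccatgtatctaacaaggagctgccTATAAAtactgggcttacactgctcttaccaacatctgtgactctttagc
S100a16, first start, chr3:90537004-90537303, plus strand: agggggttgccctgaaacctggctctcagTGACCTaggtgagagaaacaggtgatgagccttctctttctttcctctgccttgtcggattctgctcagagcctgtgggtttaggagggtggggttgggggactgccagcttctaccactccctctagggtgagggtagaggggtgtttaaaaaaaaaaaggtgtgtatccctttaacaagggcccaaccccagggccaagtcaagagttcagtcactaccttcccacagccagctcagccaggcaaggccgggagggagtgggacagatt
S100a16, other start, chr3:90540896-90541195, plus strand: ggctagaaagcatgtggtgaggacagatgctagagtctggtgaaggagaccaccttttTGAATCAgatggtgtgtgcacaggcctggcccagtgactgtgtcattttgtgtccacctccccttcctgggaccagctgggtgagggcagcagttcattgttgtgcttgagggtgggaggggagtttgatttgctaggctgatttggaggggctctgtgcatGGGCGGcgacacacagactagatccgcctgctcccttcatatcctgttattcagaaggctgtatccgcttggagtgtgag
The windows of S100a8 and S100a9 each held a TATA box match, which 13.6% of 32851 windows of this length hold. The match began at position −30 from the start in S100a8 and at position 0, the start itself, in S100a9. S100a9 also held a C/EBP match, found in 10.8% of windows, and a GC box match, found in 35.7%. One S100a16 window held a receptor half-site match, found in 16.3% of windows. The other held an AP-1 match, found in 7.81%, and a GC box match. Of the windows not printed, those of S100a4, S100a7a and S100a11 also held a half-site match. That of S100a4 also held a TATA box match, and that of S100a11 held 2 AP-1 and 3 GC box matches. The windows of S100a1 and S100a6 held no match. None of these genes with unprinted windows was called. No matches overlapped one another in these windows, and a match of letters is not a shown binding site.

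S100a14 and S100a16 were higher in Thra1PV/+ endometrium, and the other 8 genes did not pass. S100a14 was 30.7-fold higher and S100a16 2.26-fold higher. The 10 genes had a median log2 fold change of 0.91, beside −0.05 over all tested genes. Of the 10 fold changes 8 were positive, beside 7843 of all 18174. Those of S100a4 and S100a6 were positive but within their standard errors of 0. At an unadjusted p under 0.05, 6 of the 10 passed, beside 9.77% of all tested genes. The libraries of the genotypes did not overlap for S100a14 and S100a16, 2 of the 10, beside 6.04% of all tested genes. Because the 10 genes were chosen with earlier results of these data known, these shares are not a test of the family.

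**Figure D1:**
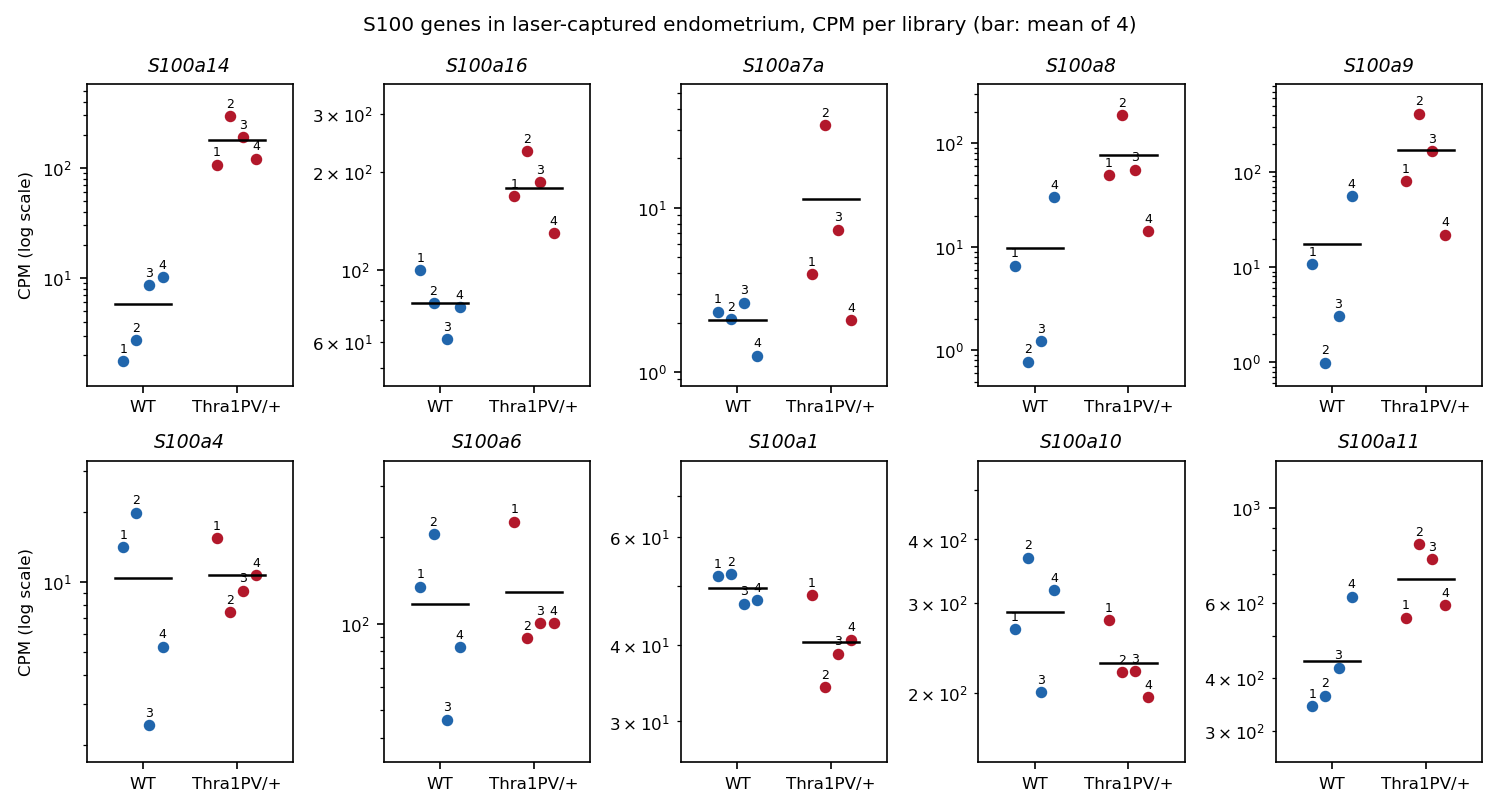
CPM of each of the 10 S100 genes in WT (blue) and Thra1PV/+ (red) libraries, on a log axis, with each point numbered by its library and the bar at the mean of 4. The genotypes are apart for S100a14 and S100a16, and Thra1PV/+ library 2 is the highest point for S100a7a (32.0 CPM), S100a8 (188 CPM) and S100a9 (412 CPM).

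S100a14, which encodes an epithelial S100 protein, stood at 107, 296, 191 and 122 CPM in Thra1PV/+ libraries 1 to 4 and at 1.76, 2.73, 8.63 and 10.2 CPM in WT libraries 1 to 4. Every Thra1PV/+ library was above every WT library, and Thra1PV/+ library 2 was the highest. The log2 fold change was 4.94 (SE 0.68, adjusted p = 0.0202, edgeR quasi-likelihood test). By log2 fold change it was the gene in place 78 of the 18174 tested. It was called again in each of the 8 fits that left out one library, with log2 fold changes from 4.58 to 5.35 and adjusted p from 0.0286 to 0.0793.

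The markers of squamous epithelium, a layer that does not line the normal uterus, were higher in sum in Thra1PV/+ libraries, as S100a14 was. Summed CPM of 14 such markers were 2077, 3874, 3610 and 2762 in Thra1PV/+ libraries 1 to 4. In WT libraries 1 to 4 they were 19.8, 45.4, 90.5 and 33.9. Within Thra1PV/+ the sum and S100a14 had the same order of libraries. Within WT S100a14 was highest in library 4 and the sum in library 3. Of the 13 tested, 9 were called and all 9 were higher, among them Krt5, a basal cell keratin, with a log2 fold change of 7.43 (SE 1.10, adjusted p = 0.0268), Trp63, the basal cell transcription factor, with 6.11 (SE 0.53, adjusted p = 0.00333) and Krt14, the partner keratin of Krt5, with 6.76 (SE 1.35, adjusted p = 0.0928). The part of the squamous cells in the level of S100a14 was not tested. Markers of simple epithelium were at similar sums, from 1929 to 4704 CPM in Thra1PV/+ and from 1872 to 5037 CPM in WT libraries, and 0 of 6 were called by edgeR or DESeq2, with 0 at an unadjusted p under 0.05 by edgeR. Set against the epithelial genes Epcam and Cdh1, the log2 ratio of S100a14 was −1.78 ± 0.41 (SD, n = 4) in Thra1PV/+ and −6.86 ± 0.52 (SD, n = 4) in WT libraries. The difference of 5.09 had a two-sided exact permutation p = 0.0286, the smallest that 4 against 4 libraries allow. After Benjamini-Hochberg adjustment over 3 such ratios it was 0.0857. S100a14 alone already separated the genotypes, and Epcam and Cdh1 had log2 fold changes of 0.09 and −0.09. The ratio therefore repeats the difference in S100a14, and its p is no separate support.

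The genes whose pattern over the 8 libraries was most like that of S100a14, by the root mean square difference of centred log2 CPM among 12113 genes, were Rhov (0.50), Anxa8 (0.53), Ly6d (0.56) and Aqp3 (0.65). Anxa8 encodes an annexin, Ly6d a surface protein, Rhov a small GTPase and Aqp3 a water and glycerol channel. The log2 fold changes of these genes were 4.95, 4.41, 5.75 and 6.05 in that order. All 4 genes were called, and that likeness used the same libraries as the fold changes.

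S100a16, which encodes a broadly expressed S100 protein, stood at 168, 231, 186 and 129 CPM in Thra1PV/+ libraries 1 to 4 and at 99.9, 78.7, 61.1 and 76.8 CPM in WT libraries 1 to 4. The groups did not overlap, and Thra1PV/+ library 2 was the highest. The log2 fold change was 1.18 (SE 0.22, adjusted p = 0.0677, edgeR quasi-likelihood test). The call was kept without Thra1PV/+ library 4 and without WT library 1, and it was lost without any one of the other 6 libraries, with adjusted p from 0.0583 to 0.217 over the 8 fits and log2 fold changes from 1.03 to 1.35. Most alike in pattern were Ncf4, a subunit of the phagocyte oxidase, Sh2b2, Fmnl1 and 1600014C10Rik, with differences between 0.21 and 0.26. None of these 4 genes was called, and 326 genes lay within 0.5 of S100a16.

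Without Thra1PV/+ library 2, which was the highest library for S100a7a, S100a8, S100a9, S100a11, S100a14 and S100a16, and WT library 4, which was the WT library with the most S100a8 and S100a9, a fit chosen after seeing the data called none of the 10 genes, beside 27 genes, 0.147% of those tested, in all. In that fit S100a14 had a log2 fold change of 4.998 (adjusted p = 0.130) and S100a16 of 1.01 (adjusted p = 0.367). In that fit 3 libraries of each genotype were left.

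The calprotectin genes had large fold changes and a large spread. S100a8 stood at 49.6, 188, 55.8 and 14.1 CPM in Thra1PV/+ libraries 1 to 4 and at 6.60, 0.776, 1.23 and 30.2 CPM in WT libraries 1 to 4. S100a9 stood at 79.8, 412, 165 and 21.9 CPM in the Thra1PV/+ libraries and at 10.8, 0.993, 3.06 and 56.1 CPM in the WT libraries. Both genes overlapped between genotypes, since WT library 4 was above Thra1PV/+ library 4, and both were highest in Thra1PV/+ library 2. The log2 fold change was 2.99 for S100a8 (SE 1.24, adjusted p = 0.491) and 3.26 for S100a9 (SE 1.32, adjusted p = 0.475), and neither passed. DESeq2, which called 3.58% of the 22073 genes it tested, called S100a9 at an adjusted p of 0.0744.

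A few libraries set the size of these differences. Without Thra1PV/+ library 2 the log2 fold change of S100a8 was 2.04, and without WT library 4 it was 4.74. For S100a9 the range over the 8 fits was 2.33 to 5.10. The adjusted p of both genes was above 0.2 in every one of the 8 fits.

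Over the 8 libraries S100a8 and S100a9 were closer to each other than any of 12113 genes was to either, with a difference of 0.37. Next for S100a8 came Ccr1, a chemokine receptor of myeloid cells, at 0.61, Il1b, the cytokine interleukin 1 beta, at 0.65, Cxcl3, a neutrophil-attracting chemokine, at 0.91, and Tgm1, the transglutaminase that crosslinks the cornified envelope, at 0.92. Next for S100a9 came Il1b at 0.62, Ccr1 at 0.75, Cxcl3 at 0.76 and Clca3b at 0.93. On the TPM scale, which divides by transcript length, S100a9 was between 0.908 and 2.07 times the level of S100a8 in every library.

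Neutrophil receptor genes were highest in the same libraries. Csf3r, the receptor for granulocyte colony-stimulating factor, stood at 18.7, 69.4, 46.2 and 26.7 CPM in Thra1PV/+ and at 9.96, 3.38, 4.46 and 23.6 CPM in WT libraries, with a log2 fold change of 1.96 (SE 0.68, adjusted p = 0.381). Cxcr2, the receptor for neutrophil-attracting chemokines, had a log2 fold change of 2.08 (SE 0.90, adjusted p = 0.509). Among WT libraries, number 4 held the most of both receptors, as it did of S100a8 and S100a9. Within Thra1PV/+ the lowest libraries differed. Both receptors were lowest in library 1, with Cxcr2 at 8.61 CPM, and S100a8 and S100a9 were lowest in library 4.

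The other neutrophil markers varied in their pattern. Retnlg, a resistin-like gene of granulocytes, was also highest in library 2 of Thra1PV/+ and in library 4 of WT, at 2.04, 3.21, 1.76 and 1.96 CPM in Thra1PV/+ and 0.916, 0.379, 0.179 and 2.28 CPM in WT libraries, with a log2 fold change of 1.25 (SE 0.71, adjusted p = 0.631). Itgam, an integrin that macrophages share, was highest in Thra1PV/+ library 2, at 206 CPM, and in WT library 3, at 199 CPM, with a log2 fold change of 0.69 (SE 0.72, adjusted p = 0.824). Retnlg and Itgam were named after their values were seen. Ly6g, a surface marker of mouse neutrophils, was at or below 2.13 CPM in every library, with a log2 fold change of −0.24 (SE 0.78, adjusted p = 0.957). The granule genes Elane, Mpo, Camp, Ngp and Mmp8 had at most 16 counts in any library, and Elane had 0 in all 8. Summed CPM of the 10 neutrophil markers ranged from 98.8 to 329 in Thra1PV/+ and from 23.0 to 207 in WT libraries. Itgam made up most of that sum in every library, with 199 of 207 CPM in WT library 3 and 67.8 of 98.8 CPM in Thra1PV/+ library 1. Of the 5 markers tested 0 were called by edgeR, with 2 at an unadjusted p under 0.05 and 1, Csf3r, called by DESeq2. The log2 ratio of S100a8 and S100a9 to Csf3r and Cxcr2 was 1.55 ± 1.004 (SD, n = 4) in Thra1PV/+ and −0.04 ± 1.05 (SD, n = 4) in WT libraries. The difference of 1.59 did not pass (two-sided exact permutation p = 0.0857, adjusted 0.0857). The part of neutrophils in the levels of S100a8 and S100a9 was not tested.

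**Figure D2:**
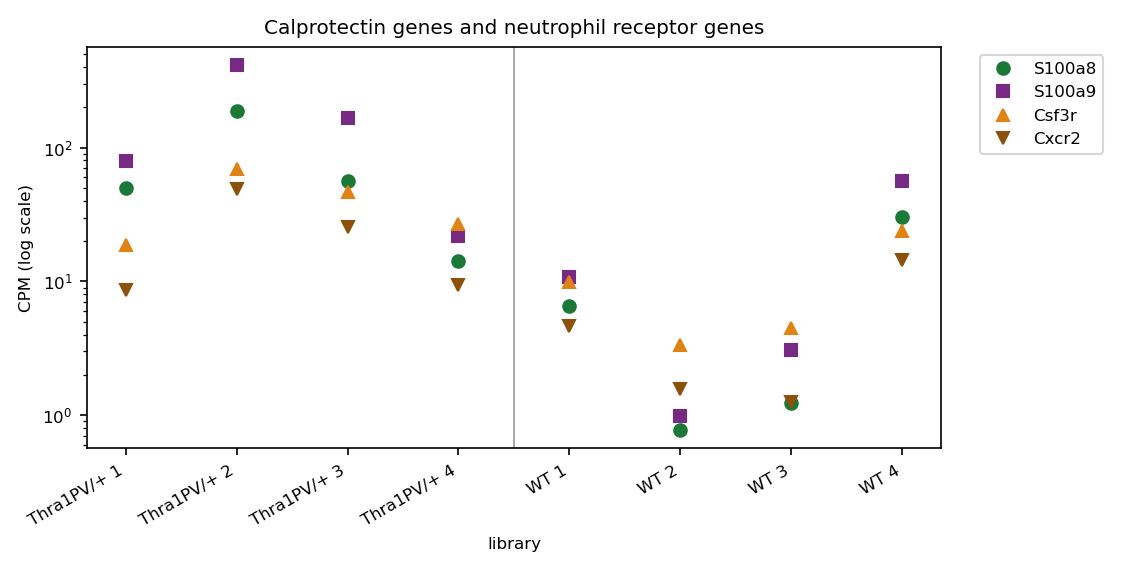
CPM of S100a8 and S100a9 and of the neutrophil receptor genes Csf3r and Cxcr2 in each library, on a log axis. All 4 genes are highest in Thra1PV/+ library 2, and in WT they are highest in library 4, where S100a9 is at 56.1 CPM.

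S100a7a, the mouse relative of psoriasin, an S100 protein of inflamed squamous epithelium, stood at 3.93, 32.0, 7.36 and 2.07 CPM in Thra1PV/+ libraries 1 to 4 and at 2.33, 2.09, 2.65 and 1.26 CPM in WT libraries 1 to 4. Thra1PV/+ library 2 was far above the rest, and Thra1PV/+ library 4 lay within the WT range. The log2 fold change was 2.45 (SE 0.82, adjusted p = 0.365), and without Thra1PV/+ library 2 it was 1.10. DESeq2 called it at an adjusted p of 0.0389. The nearest gene in pattern was Ecm1, an extracellular matrix protein of skin, at 0.48, followed by Cd274, which encodes the checkpoint ligand PD-L1, at 0.66, Vsig10l at 0.66 and Cpeb2 at 0.72. Of its 31-base runs, 7.72% also occur in transcripts of other genes, 753 in number, so part of its count could have been shared with them.

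The means of S100a4 and S100a6 differed between genotypes by less than the spread between libraries. S100a4 stood at 15.4, 7.43, 9.19 and 10.7 CPM in Thra1PV/+ libraries 1 to 4 and at 14.2, 19.95, 2.43 and 5.30 CPM in WT libraries 1 to 4, with a log2 fold change of 0.03 (SE 0.59, adjusted p = 0.992). S100a6 stood at 226, 89.0, 100.3 and 100.3 CPM in the Thra1PV/+ libraries and at 134, 204, 46.4 and 82.7 CPM in the WT libraries, with a log2 fold change of 0.14 (SE 0.48, adjusted p = 0.959). For both genes the 3 highest libraries were Thra1PV/+ library 1 and WT libraries 1 and 2.

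Those were also the libraries with the most stromal RNA. Summed CPM of the 9 stromal markers, which include Pdgfra and Col1a2, were 6450 in Thra1PV/+ library 1 and 6220 and 6184 in WT libraries 1 and 2, and at most 2134 in the other 5 libraries. None of these 9 markers was called by edgeR, with 1 at an unadjusted p under 0.05 and 1, Dcn, called lower by DESeq2. Pdgfra, the platelet-derived growth factor receptor of fibroblasts, had a log2 fold change of −0.89 (SE 0.60, adjusted p = 0.690), Col1a2, a chain of type I collagen, of −0.56 (SE 0.76, adjusted p = 0.873), and Dcn, which encodes decorin, of −2.24 (SE 0.74, adjusted p = 0.355). Set against Col1a2 and Pdgfra, the log2 ratio of S100a4 and S100a6 was −2.03 ± 0.77 (SD, n = 4) in Thra1PV/+ and −3.32 ± 0.28 (SD, n = 4) in WT libraries. The difference of 1.28 did not pass (two-sided exact permutation p = 0.0571, adjusted 0.0857). The sums of 7 macrophage markers, cells that also express S100a4 and S100a6, ranged from 264 to 1169 CPM in Thra1PV/+ and from 465 to 699 CPM in WT libraries, with Thra1PV/+ library 1 the highest, and none of the 7 was called by edgeR or DESeq2 or had an unadjusted p under 0.05 by edgeR. Among them Csf1r, the receptor of the macrophage growth factor, had a log2 fold change of 0.55 (SE 0.47, adjusted p = 0.771), Adgre1, the surface marker F4/80, of 0.34 (SE 0.53, adjusted p = 0.890), and C1qa, a complement chain, of 0.18 (SE 0.41, adjusted p = 0.933). The part of stromal cells and macrophages in the levels of S100a4 and S100a6 was not tested.

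**Figure D3:**
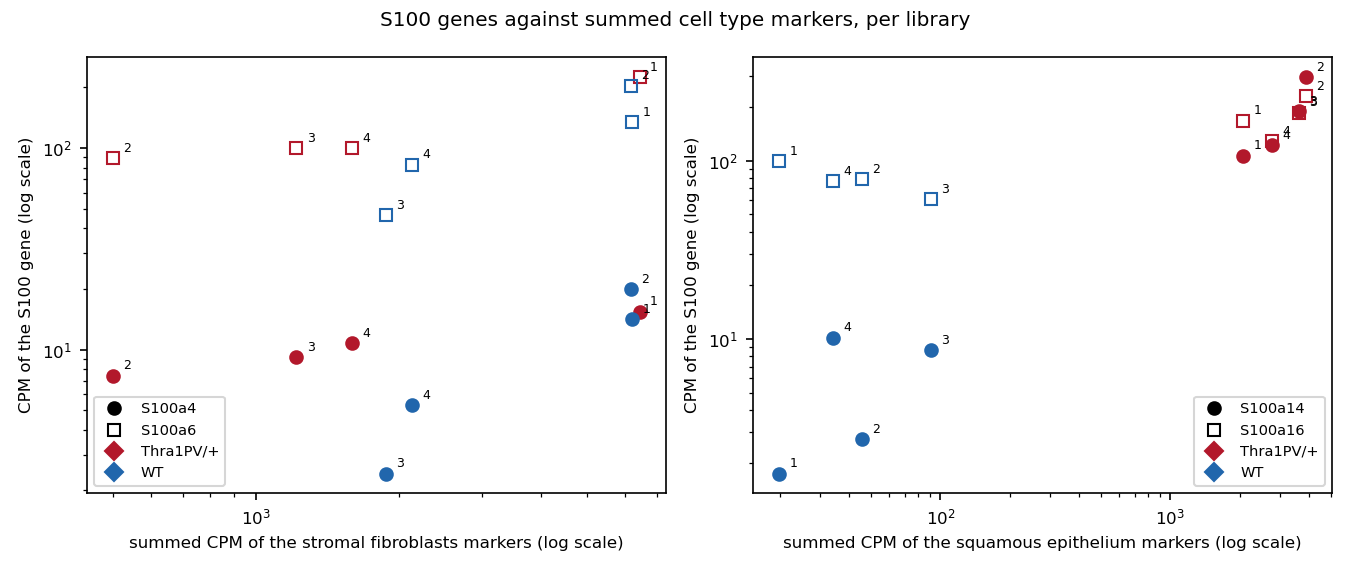
CPM of S100a4 and S100a6 against the summed CPM of 9 stromal markers (left) and of S100a14 and S100a16 against the summed CPM of 14 squamous markers (right), per library, both axes on a log scale, with WT in blue and Thra1PV/+ in red. On the left the libraries with stromal sums of 6184 CPM or more have the highest S100a4 and S100a6, and on the right the genotypes separate on both axes.

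S100a11 had the highest level of the 10 genes. It stood at 554, 824, 759.7 and 593 CPM in Thra1PV/+ libraries 1 to 4 and at 343, 363, 422 and 620.0 CPM in WT libraries 1 to 4. WT library 4 was above 2 of the Thra1PV/+ libraries, and the other 3 WT libraries were below all of them. The log2 fold change was 0.64 (SE 0.23, adjusted p = 0.409), and it did not pass. Of its 31-base runs, 48.9% also occur in 6 other genes, mostly Gm12854, so its count could have been split among them.

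S100a10 and S100a1 had negative fold changes that did not pass. S100a10, the annexin A2 partner, stood at 277, 219.5, 221 and 196 CPM in Thra1PV/+ and at 267, 368, 200.4 and 318 CPM in WT libraries 1 to 4, with a log2 fold change of −0.34 (SE 0.21, adjusted p = 0.660). S100a1, best known from muscle, where it acts on calcium release, stood at 48.2, 34.2, 38.7 and 40.8 CPM in Thra1PV/+ and at 51.8, 52.1, 46.7 and 47.3 CPM in WT libraries, with a log2 fold change of −0.29 (SE 0.13, adjusted p = 0.529). The ranges overlapped for both genes, for S100a1 only through Thra1PV/+ library 1. Smooth muscle markers, of which 0 of 5 were called by edgeR and 5 had an unadjusted p under 0.05, had negative fold changes too, and Myh11, the smooth muscle myosin, had a log2 fold change of −4.60 (SE 1.47, adjusted p = 0.344), Acta2, smooth muscle actin, of −4.01 (SE 1.37, adjusted p = 0.377) and Des, desmin, of −2.22 (SE 0.83, adjusted p = 0.434). S100a1 stood at 51.8 CPM in WT library 1, which had the most of these markers, and between 46.7 and 52.1 CPM in the other WT libraries. The part of smooth muscle in the level of S100a1 was not tested. Summed CPM of 4 blood markers, none of them called by edgeR or DESeq2 and 1 with an unadjusted p under 0.05, ranged from 9.90 to 20.3 in Thra1PV/+ and from 11.6 to 122 in WT libraries. Among those, Hba-a1, Hbb-bs and Hbb-bt, the hemoglobin chains, had log2 fold changes of −1.73, −1.81 and −1.78.

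**Figure D4:**
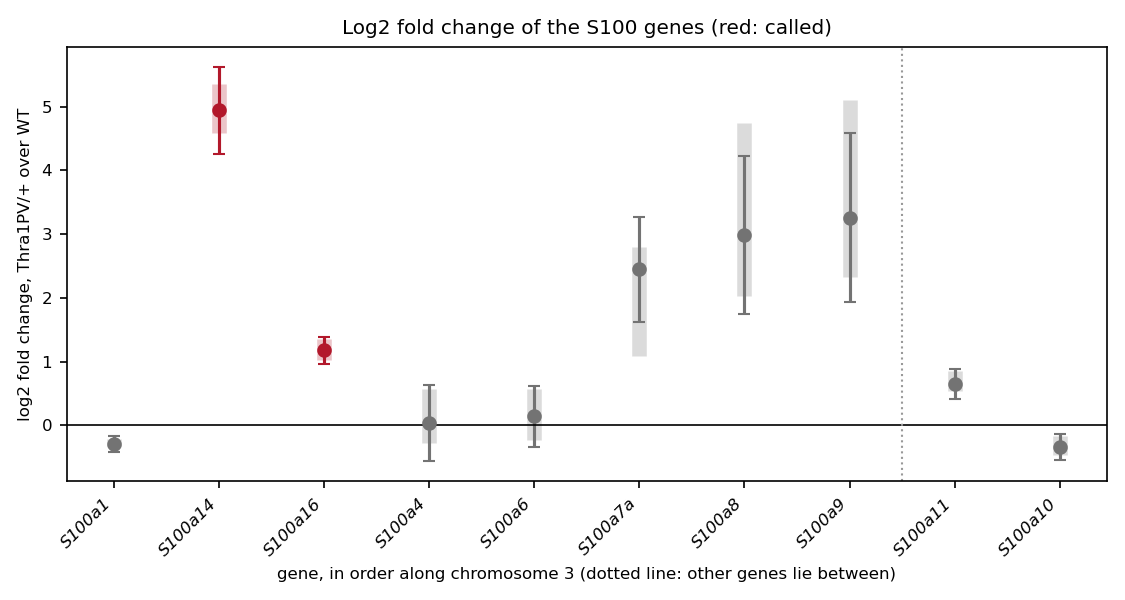
Log2 fold change of each S100 gene, Thra1PV/+ over WT, with genes in their order on chromosome 3. Points are estimates, whiskers standard errors, shaded bars the range over 8 fits with one library left out, and red marks the called genes S100a14 (4.94) and S100a16 (1.18), whose bars stay above 0.

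The authors' TPM values divide by transcript length, so levels can be compared between genes. The deposited TPM values had nearly the same sorted distribution in every library, differing by at most 0.291 TPM at any rank. In Thra1PV/+ endometrium S100a11 was highest at 2457 ± 356 TPM (SD, n = 4), followed by S100a10 at 580.1 ± 189 TPM, S100a9 at 446 ± 418 TPM, S100a6 at 391 ± 236 TPM, S100a8 at 299.7 ± 280.1 TPM, S100a14 at 234 ± 100.3 TPM, S100a16 at 232 ± 48.6 TPM, S100a1 at 92.6 ± 19.9 TPM, S100a4 at 38.1 ± 15.3 TPM and S100a7a at 12.7 ± 17.1 TPM. In this order S100a11 and S100a10, S100a16 and S100a1, and S100a1 and S100a4 did not overlap over the 4 libraries, and the other neighbours did.

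In WT endometrium the order was S100a11 at 1467 ± 491 TPM (SD, n = 4), S100a10 at 669 ± 246 TPM, S100a6 at 365 ± 251 TPM, S100a1 at 106 ± 11.02 TPM, S100a16 at 97.4 ± 23.0 TPM, S100a9 at 45.9 ± 66.0 TPM, S100a8 at 35.4 ± 50.5 TPM, S100a4 at 35.3 ± 27.2 TPM, S100a14 at 7.51 ± 5.79 TPM and S100a7a at 2.78 ± 0.54 TPM. Here S100a11 and S100a10, and S100a6 and S100a1, did not overlap over the 4 libraries, and the other neighbours did. S100a14 was in place 9 of the 10 genes in WT and in place 6 in Thra1PV/+ endometrium. Summed over the 10 genes, TPM was 4782 ± 1175 (SD, n = 4) in Thra1PV/+ and 2831 ± 729 (SD, n = 4) in WT endometrium (two-sided exact permutation p = 0.0571). S100a11, which was not called, made up 52.5% of that sum in Thra1PV/+ and 52.3% in WT endometrium on average. Because the 10 genes were chosen with earlier results of these data known, that p is not a test of the family.

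**Figure D5:**
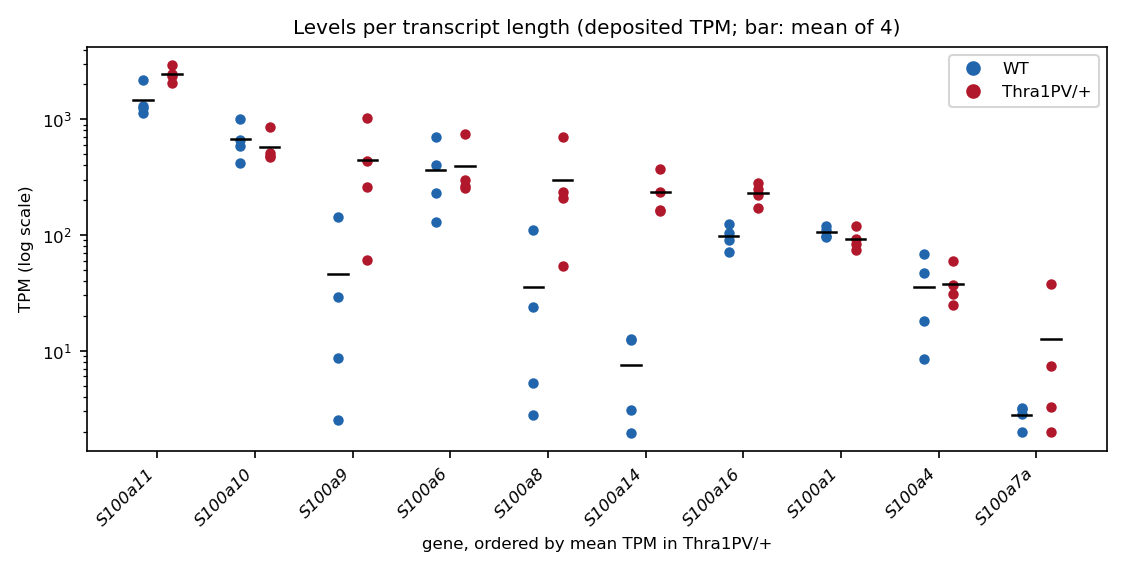
Deposited TPM of each S100 gene per library on a log axis, WT in blue and Thra1PV/+ in red, with the bar at the mean of 4 and genes ordered by their mean in Thra1PV/+. S100a11 is highest in both genotypes, at 1467 TPM in WT and 2457 TPM in Thra1PV/+, and S100a14 has the widest gap between genotypes.

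Of 6 further S100 genes, 3 were tested and none was called by edgeR, with 2 at an unadjusted p under 0.05 and 1, S100a3, called by DESeq2. S100g encodes one of the calbindins, a calcium buffer known in uterine epithelium. It stood at 36.0, 13.01, 14.6 and 17.3 CPM in Thra1PV/+ and at 11.2, 342, 92.6 and 15.6 CPM in WT libraries 1 to 4. The level in WT libraries 2 and 3 was above every Thra1PV/+ library and that in WT libraries 1 and 4 was not, and the log2 fold change was −2.51 (SE 1.04, adjusted p = 0.486). S100a3, which lies between S100a16 and S100a4, had 1.05 ± 0.40 CPM (SD, n = 4) in Thra1PV/+ and 0.374 ± 0.072 CPM (SD, n = 4) in WT libraries, without overlap, and a log2 fold change of 1.48 (SE 0.38, adjusted p = 0.206, and 0.00932 by DESeq2). S100a13, which helps release growth factors from cells, had a log2 fold change of −0.29 (SE 0.27, adjusted p = 0.790). S100b, S100z and S100a5 were not tested because their counts were low, at most 20 in any library, and S100a5 had 0 in all 8. S100a2, added to the list after seeing the data, had at most 6 counts in any library.

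The fused-type S100 genes join an S100 domain to a long repeat and are made late in squamous differentiation. Of 7 such genes only Tchh was tested, with a log2 fold change of 0.50 (SE 0.38, adjusted p = 0.740). Crnn, which encodes cornulin, had 7, 113, 80 and 22 counts in Thra1PV/+ libraries 1 to 4 and 0 in every WT library, which makes it at least 19.0-fold higher in Thra1PV/+, taking 3 counts per WT library as the floor. Flg, which encodes filaggrin, had 35 and 34 counts in Thra1PV/+ libraries 2 and 3 and 0 in the other 2 and in every WT library. By the mean of 4 it was at least 6.01-fold higher with the same floor, a value that rests on those 2 libraries. Rptn, which encodes repetin, had 21, 179, 154 and 7 counts in Thra1PV/+ and 4, 7, 4 and 1 counts in WT libraries. Those 2 libraries with the most Crnn, Flg and Rptn also had the largest squamous marker sums. DESeq2, run without that count filter, called Crnn (adjusted p = 1.65e-06) and Rptn (adjusted p = 0.00046), 2 of the 7, and did not call Flg (adjusted p = 0.170). With the filter lowered to 1 count in any library, edgeR tested 6 of the 7 and called 0. Flg2 had 0 counts in all 8 libraries, and Hrnr and Tchhl1 had at most 5.

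Of 16 genes for partners and receptors of S100 proteins, all 16 were tested and none was called by edgeR or DESeq2, with 2 at an unadjusted p under 0.05, and 7 fold changes were positive and 9 negative. The receptors had log2 fold changes of −0.06 for Ager (SE 0.41, adjusted p = 0.982), −0.30 for Tlr4 (SE 0.37, adjusted p = 0.857) and −0.29 for Bsg, the basigin receptor of S100A9 (SE 0.35, adjusted p = 0.850). Among the partners, Anxa1, the partner of S100A11, had 0.73 (SE 0.36, adjusted p = 0.574), Anxa2 had 0.28 (SE 0.21, adjusted p = 0.730) and Ahnak, a scaffold bound by S100A10, had 0.11 (SE 0.20, adjusted p = 0.914). The 2 genes under an unadjusted p of 0.05 were Cacybp, calcyclin-binding protein, at 0.70 (SE 0.19, adjusted p = 0.230), and Anxa6 at −0.44 (SE 0.17, adjusted p = 0.437), and both were named after their values were seen.

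By position (mm10), S100a1 (90511034-90514392), S100a14 (90526856-90528837), S100a16 (90537254-90543151), S100a4 (90603771-90606045), S100a6 (90612882-90624181), S100a7a (90654017-90658669), S100a8 (90668978-90670035) and S100a9 (90692632-90695721) lie within 184.7 kb of chromosome 3, and S100a11 (93520488-93526287) and S100a10 (93555080-93564643) lie at the other end of the epidermal differentiation genes. The called genes S100a14 and S100a16 are 8.417 kb apart, and S100a8 and S100a9 are 22.597 kb apart on opposite strands. S100a1 and S100a9 are on the minus strand and the other 8 on the plus strand. In the 3.05 Mb from S100a1 to S100a10, 32 genes were tested and 3 called, 9.38%, beside 0.99% of all genes tested. That interval was set by the positions of the 10 genes, and the 3 called include S100a14 and S100a16. Of the 22 that are not among the 10 genes, 1 was called, 4.55%. It was Ivl, which encodes involucrin of the cornified envelope, with a log2 fold change of 8.91 (SE 0.64, adjusted p = 0.00143). S100a14 and S100a16 lie between S100a13 and S100a3, neither of which was called. Of the 31-base runs of S100a4, 49.2% occur also in Gm42674, and the share was 0.424% for S100a10 and 0 for S100a1, S100a6, S100a8, S100a9, S100a14 and S100a16.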

How the data were processed

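Stranded mRNA libraries of laser-captured endometrium were sequenced paired-end. The authors' processing notes name Trimmomatic, Salmon, DESeq2 and the build mm10. The Salmon version and the annotation are not given in the sources used here. The authors deposited estimated counts for each gene, not normalized, and TPM values whose sorted distribution was nearly the same in all libraries. Among the TPM columns, 1 further sample column held values that TPM cannot take and was not used.

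Estimated counts were rounded to whole numbers and tested with edgeR 4.0.16 in R 4.3.3 (filterByExpr with a minimum count of 10 and total of 15, TMM, quasi-likelihood test, no covariate), with the authors' thresholds of fold 2 and adjusted p 0.1. Each standard error is the log2 fold change divided by the root of F. Log2 CPM used a prior count of 2. The script was tested on simulated data. DESeq2 1.42.0, limma 3.58.1 with pseudocounts of 1 and 0.1 on log2 TPM, other scalings and filters, a replicate block and leaving out each library were alternatives. Exact tests used scipy 1.17.1 in Python 3.11.15. Sequences are from RefSeq and positions from GENCODE (both GRCm38).

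The members and gene lists were chosen with earlier results of these data known. Named are the S100 genes, called genes of the lists, selected receptors and partners, the first markers of each list, and the 4 genes most alike in pattern to S100a7a, S100a8, S100a9, S100a14 and S100a16 among those whose mean log2 CPM reached 2. Replicate numbers are labels, and nothing says that they pair mice. P-values measure the spread between these libraries, and floors cover counting error only.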

Additional observations from a re-analysis of the deposited data

Results flagged for a closer look

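S100a6 in Thra1PV/+ library 1 stood apart from the other Thra1PV/+ libraries. Its log2 CPM was 7.82, against 6.48 to 6.65 in the other 3, and the gap was 0.871 of the whole range, above Dixon's critical value at 95% for 4 samples. Among 32 groups examined 1 was marked, and chance marks 1.6. That library also had the highest stromal and macrophage marker sums among the Thra1PV/+ libraries, 6450 and 1169 CPM, and the part of those cells in the value was not tested.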

How the results depend on the processing

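Of 190 values of the 10 genes under alternatives, 173 kept their direction and side of the threshold, 9 were no longer called, 2 were newly called and 6 changed sign. The number of the 10 genes called was 2 with edgeR, 4 with DESeq2, 1 with the replicate block and 1 at an adjusted p of 0.05. It was 6 at an unadjusted p under 0.05 and 0 without Thra1PV/+ library 2 and WT library 4. With each library left out it was 1 to 2. Over all tested genes edgeR called 0.99% and DESeq2 3.58%, and 9.77% had an unadjusted p under 0.05 by edgeR. Without Thra1PV/+ library 2 and WT library 4 the share called was 0.147%. Of the further S100 genes 0 were called by edgeR, 1 by DESeq2, 1 by limma on log2 TPM with a pseudocount of 0.1 and 2 at an unadjusted p under 0.05. Of the fused-type genes DESeq2 called 2 of 7, edgeR called 0 of the 6 it tested with a filter of 1 count in any library, and the cause of that difference was not tested. Of the partners 2 had an unadjusted p under 0.05. S100a4 changed sign without Thra1PV/+ library 1 (−0.15), WT library 3 (−0.28), WT library 4 (−0.19) and without Thra1PV/+ library 2 and WT library 4 together (−0.046), and S100a6 without Thra1PV/+ library 1 (−0.22) and WT library 3 (−0.11), each within its standard error of 0, and their highest values with one library left out were 0.57 and 0.58. Correlations of same-numbered libraries were 0.27, −0.44, 0.34 and −0.16, and 1 of 4 numbers was closest to its own, so the numbers were not taken as pairs. With the replicate block S100a14 had an adjusted p of 0.0788 and S100a16 of 0.197. The 3 ratios kept their direction when any library was left out, with differences of 1.15 to 2.06 for S100a8 and S100a9, 4.87 to 5.26 for S100a14 and 0.98 to 1.59 for S100a4 and S100a6, but 3 against 4 libraries cannot reach a p under 0.05. Depth limits S100z and S100a2, with at most 12 and 6 counts in any library, and Flg, Hrnr and Tchhl1, with 0 in at least 5 libraries.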
